A study of Mus musculus with 12 samples.

Results

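The respiratory chain genes of the nuclear genome were followed in D3 cells, a mouse embryonic stem cell line, on 12 expression arrays. Members were the genes whose symbol in the platform annotation begins with Ndufa, Ndufb, Ndufc, Ndufs, Ndufv, Uqcr, Cox4i, Cox5, Cox6, Cox7, Cox8 or Atp5, together with Sdha, Sdhb, Sdhc, Sdhd and Cycs. This gave 91 genes with 183 probe sets, out of 18193 genes named by a single symbol and 45037 probe sets. Each gene was read from its brightest probe set, and 87 of the 91 were bright enough to be tested. The rule itself uses symbols and brightness only.

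All cultures were D3 cells kept for 7 days in serum-containing stem cell medium, and they differed in 2 additions. The LIF group received 1000 units/ml of leukaemia inhibitory factor (LIF), a cytokine that maintains self-renewal of mouse stem cells. The LIF plus lithium group received LIF and lithium, the LIF-free group neither, and the LIF-free plus lithium group lithium alone. The labels give the lithium dose as 50 nM. Each group has 3 arrays that the labels call biological replicates, all from a single cell line, and nothing says whether they came from separate cultures grown on separate days.

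The respiratory chain passes electrons from NADH and succinate to oxygen in the inner mitochondrial membrane. Complexes I and II feed electrons to ubiquinone, complex III hands them to cytochrome c, and complex IV reduces oxygen, while complex V uses the proton gradient so formed to make ATP. Most subunits are encoded in the nucleus and imported, and a smaller group is encoded in mitochondrial DNA. Pluripotent stem cells rely heavily on glycolysis, although naive mouse stem cells also respire.

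Promoter sequences of 5 members are shown first, since members that were lower without LIF and members that were not called can be read against them. Of the 91 members, 75 had an entry in the RefSeq promoter table (GRCm38.p6). The 250 bases before the annotated start were used. Cox7a1 (chr7:30183921-30184170, plus strand), Cox8a (chr19:7217617-7217866, minus strand) and Ndufa6 (chr15:82354292-82354541, minus strand) were lower after LIF withdrawal both without and with lithium. Uqcrq, also lower in both, had no promoter entry. Cox6a1 (chr5:115348959-115349208, minus strand) and Cycs (chr6:50566570-50566819, minus strand) were not called in any comparison and hold matches to the binding motif of NRF1, a transcription factor of respiratory genes. These 2 were picked by hand and are not typical of uncalled members. Of the 53 tested members not lower in the average of the withdrawal comparisons, 7 hold that motif. Sequences run 5′ to 3′ and end at the last base before the start, and capitals mark matches to any of the 6 motifs searched.
Cox7a1: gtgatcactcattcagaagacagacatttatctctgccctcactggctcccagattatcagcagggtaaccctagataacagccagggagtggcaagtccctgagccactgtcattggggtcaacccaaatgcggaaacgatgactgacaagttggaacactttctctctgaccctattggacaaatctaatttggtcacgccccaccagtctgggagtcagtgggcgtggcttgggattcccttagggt
Cox8a: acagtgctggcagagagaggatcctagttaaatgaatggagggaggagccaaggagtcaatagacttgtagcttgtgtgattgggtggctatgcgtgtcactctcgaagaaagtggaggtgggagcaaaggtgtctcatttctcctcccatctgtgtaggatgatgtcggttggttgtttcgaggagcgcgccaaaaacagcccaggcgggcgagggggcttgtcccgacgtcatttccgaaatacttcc
Ndufa6: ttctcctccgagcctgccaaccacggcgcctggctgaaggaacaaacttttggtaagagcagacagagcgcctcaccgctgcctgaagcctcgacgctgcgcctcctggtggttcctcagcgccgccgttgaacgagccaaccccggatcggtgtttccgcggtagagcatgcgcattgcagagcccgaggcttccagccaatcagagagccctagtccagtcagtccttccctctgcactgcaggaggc
Cox6a1: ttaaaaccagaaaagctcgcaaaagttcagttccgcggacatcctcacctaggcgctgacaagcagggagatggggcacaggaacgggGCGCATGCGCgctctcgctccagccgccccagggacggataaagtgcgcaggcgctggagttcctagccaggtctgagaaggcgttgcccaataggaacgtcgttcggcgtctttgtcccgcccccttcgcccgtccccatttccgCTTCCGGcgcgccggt
Cycs: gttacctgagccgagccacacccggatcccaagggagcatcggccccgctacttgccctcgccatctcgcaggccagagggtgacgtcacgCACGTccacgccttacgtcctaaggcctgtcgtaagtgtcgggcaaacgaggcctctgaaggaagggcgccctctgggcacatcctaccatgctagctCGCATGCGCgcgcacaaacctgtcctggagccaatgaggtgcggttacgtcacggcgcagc

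The motifs were searched on both strands and were chosen after the calls were known, so the counts are descriptions. They were NRF1 (GCGCATGCG), GABP (CCGGAAG), YY1 (AAGATGGCG), the estrogen-related receptor (TCAAGGTCA), the core of the hypoxia response element (ACGTG) and STAT3 (TTCCNGGAA). The NRF1 motif stood in 7 of 75 member promoters (9.33%) and in 1.64% of the 27025 genes with a promoter. NRF1 was searched in 2 forms: a 10-letter form with any base at one place was searched first, and it stood in 12 of the 75 members and 4.23% of all genes. The GABP motif stood in 14 members (18.7%) against 7.83% of all genes, and ACGTG in 17 (22.7%) against 18.5%. The YY1 (0.71% of all genes), estrogen-related receptor (0.422%) and STAT3 (1.09%) motifs each stood in 1 member promoter. In Cox6a1 the capitals are an overlapping pair of NRF1 matches, on opposite strands, and a GABP match. In Cycs they are an NRF1 match and an ACGTG match. The promoters of Cox7a1, Cox8a and Ndufa6 hold no exact match to any motif searched, and near matches were not counted.

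Among the 19 members with a promoter entry that were lower in the average of the withdrawal comparisons described below, 0 held the NRF1 motif, compared with 7 of the 53 other tested members. The 10-letter form likewise stood in 0 of 19 and 11 of 53. GABP stood in 3 of 19 (Atp5j, Ndufaf8 and Uqcr11) and in 11 of 53, and ACGTG in 4 of 19 and 12 of 53. A match describes letters in this window and shows no binding.

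Stem cell identity was measured alongside. Summed signal of 10 pluripotency markers ranged from 19700 to 31200 in LIF, from 23200 to 24400 in LIF plus lithium, from 12000 to 15100 in LIF-free and from 9820 to 14700 in LIF-free plus lithium cultures. Of the 10 markers, 8 were lower without LIF in each withdrawal comparison. Heart and muscle markers summed to 170 to 250 on the arrays with LIF and to 292 to 416 on those without, which do not overlap. Of 11 tested heart and muscle markers, 1 was higher without lithium and 2 with lithium, Tnnc1 in both. The list did not move as a whole: 8 of 11 changes were negative without lithium (median -0.65) and 5 with lithium (median 0.23). In the average 2 markers were higher and 2 lower. Endoderm markers had group means of 338 and 348 with LIF and of 560 and 478 without, with overlapping ranges of 207 to 515 and 348 to 682. Fibroblast or feeder markers (137 to 327 with LIF, 181 to 458 without) and brown fat markers (57.1 to 121 and 44.1 to 80) overlapped too. The median array signal was 10.5 to 19.3, and arrays correlated with each other at 0.864 to 0.97. The ratio of Gapdh 3′ to 5′ signal, a measure of RNA quality, was 0.81 to 0.86 in 5 of the 6 arrays with LIF and 0.798 in the other, against 0.739 to 0.802 without LIF. The same ratio for actin was 1.49 to 1.98 with LIF and 1.45 to 1.7 without, which overlap broadly. The pluripotency and muscle sums separated the arrays by LIF, and the endoderm means and the Gapdh ratio differed in the same way with overlap. The part of any of these values in the results below was not tested. In bulk RNA, fewer cells of one kind and less RNA per cell cannot be told apart.

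Signals are MAS5 intensities on a linear scale. Signals of different probe sets depend on their probes, so they are not compared between genes. Read from the brightest probe set of each gene, 75 of 91 members lay in the brightest 10% of all probe sets. That choice of probe set raises the count. Their signals ran from 2.74 for Ndufb4 to 2870 for Ndufa7 in complex I, from 103 for Ndufaf5 to 368 for Ndufaf1 among the assembly factors, and from 529 for Sdhc to 1520 for Sdhb in complex II. In complex III they ran from 769 for Uqcr11 to 6110 for Uqcrb, in complex IV from 4.08 for Cox8b to 5220 for Cox7a2, and in complex V from 982 for Atp5g1 to 4280 for Atp5pb. The brightness filter stood at a signal of 7.52. Cox4i2, Cox7b2, Cox8b and Ndufb4 fell below it, and for Ndufb4 the brighter probe sets carry 3 symbols and were left out.

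**Figure D1:**
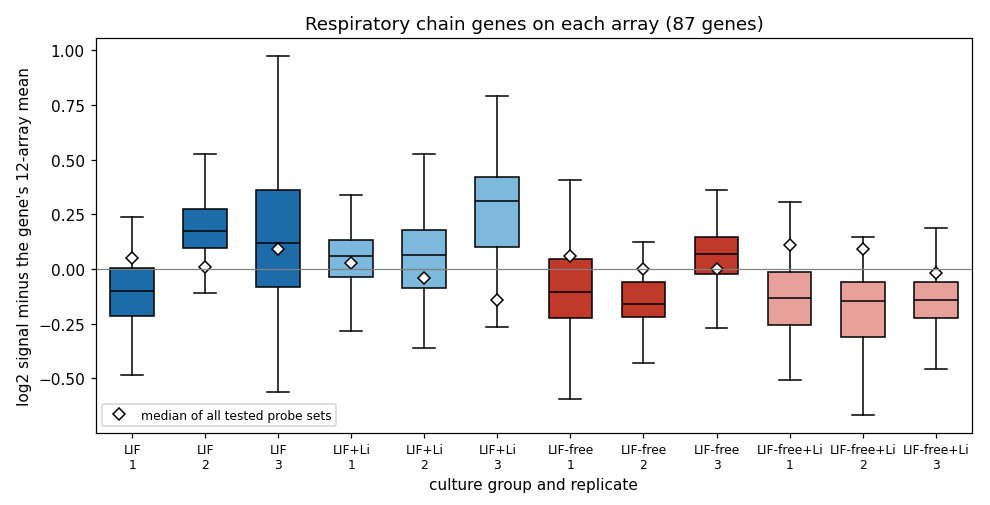
Box plots of the log2 signal of the 87 tested members, each minus that gene's mean over 12 arrays, for each array (boxes are quartiles, whiskers reach 1.5 times the box height, diamonds are the median of all tested probe sets). All 3 LIF-free plus lithium arrays have member medians of -0.14 to -0.13, and the 3 LIF plus lithium arrays 0.06 to 0.31.

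The level of the members as a whole differed from array to array. Their median deviation was -0.1, 0.17 and 0.12 in the LIF replicates 1 to 3 and 0.06, 0.06 and 0.31 in LIF plus lithium. It was -0.11, -0.16 and 0.07 in LIF-free and -0.13, -0.14 and -0.14 in LIF-free plus lithium. LIF replicate 1 thus lay with the LIF-free arrays, and LIF-free replicate 3 lay above zero. With lithium the groups did not overlap, and without lithium they did.

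LIF withdrawal without lithium (LIF-free against LIF) lowered 5 of the 87 tested members and raised 1 by limma with Benjamini-Hochberg adjustment over all 27022 tested probe sets, at a threshold of 0.05. Over all 12737 tested genes 5.09% were lower and 7.47% higher, so the members' 5 of 87 is near the background. The lower members were Ndufa4l2, Cox7a1, Cox8a, Ndufa6 and Uqcrq, and Ndufb1 was higher. Of the 87 members 64 had a negative change, against 51.4% of all genes. The median log2 change of the members was -0.11, beside -0.07 over all tested probe sets and -0.02 over all genes. It was -0.23 without LIF replicate 1 and -0.18 without LIF-free replicate 3. Centring each array on its median turned the members' median to 0.08, with 0.13 over all probe sets, and left 0 members lower and 1 higher. It also moved the share of higher calls among all called probe sets from 58% to 83.1%. Groups did not overlap, with LIF-free lower, in 11 members, against 15% of all genes.

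The replicate numbers were taken as pairing the arrays of these groups, from correlated residuals and not from the labels. With the replicate as a block, fitted over all 12 arrays, 13 members were lower and 1 higher, 16.1% of the 87. Calls over all probe sets rose as well, from 2515 of 27022 (9.31%) to 5260 (19.5%). These shares pool both directions: 51.6% of the 5260 calls were higher, against 1 of the 14 members called. The 8 further members were Atp5a1, Ndufaf2, Ndufaf8, Ndufb10, Ndufs1, Ndufs8, Sdhc and Uqcrc1, with limma adjusted p = 0.0138 to 0.0481 in the blocked fit. The count of 6 rested on single arrays. It was 14, 0 and 2 without LIF replicates 1, 2 and 3, and 2, 0 and 3 without LIF-free replicates 1, 2 and 3. None of the 6 calls held through the omission of every array in turn.

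LIF withdrawal with lithium (LIF-free plus lithium against LIF plus lithium) lowered 13 of the 87 members and raised 0, where 6.57% of all genes were lower and 9.48% higher. The lower members were 6 of complex I, the assembly factors Ndufaf2, Ndufaf5 and Ndufaf8, and Uqcrq, Cox7a1, Cox8a and Atp5g1. Of the 87 members 75 had a negative change, against 44.9% of all genes. The members' median log2 change was -0.26, beside 0.11 over all tested probe sets and 0.07 over all genes. It was -0.6, with -0.23 over all probe sets, after centring. After quantile normalisation it was -0.22, with -0.02 over all probe sets. Centring kept 4 of the 13 calls and moved the share of higher calls over all probe sets from 60.4% to 34.8%. Groups did not overlap, with the LIF-free side lower, in 43 of 87 members, against 17% of all genes. Most members are brighter than most probe sets, and the background was not matched to them in brightness. The typical confidence interval of a log2 change reached 0.31 to either side for members and 0.63 over all tested probe sets. Groups of less variable genes separate more easily, and the part of brightness in this contrast was not tested. The count of 13 fell to 6 and 3 without LIF plus lithium replicates 2 and 3, and to 4, 4 and 8 without LIF-free plus lithium replicates 1, 2 and 3.

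The withdrawal comparisons use separate arrays. Cox7a1, Cox8a, Ndufa6 and Uqcrq were lower in both, which is 80% of the first list and 30.8% of the second. Across the 87 members the 2 sets of log2 changes correlated at 0.84, and at 0.79 over the 85 members other than Ndufa4l2 and Cox7a1. These genes share arrays within each comparison, so the correlation is a description.

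**Figure D2:**
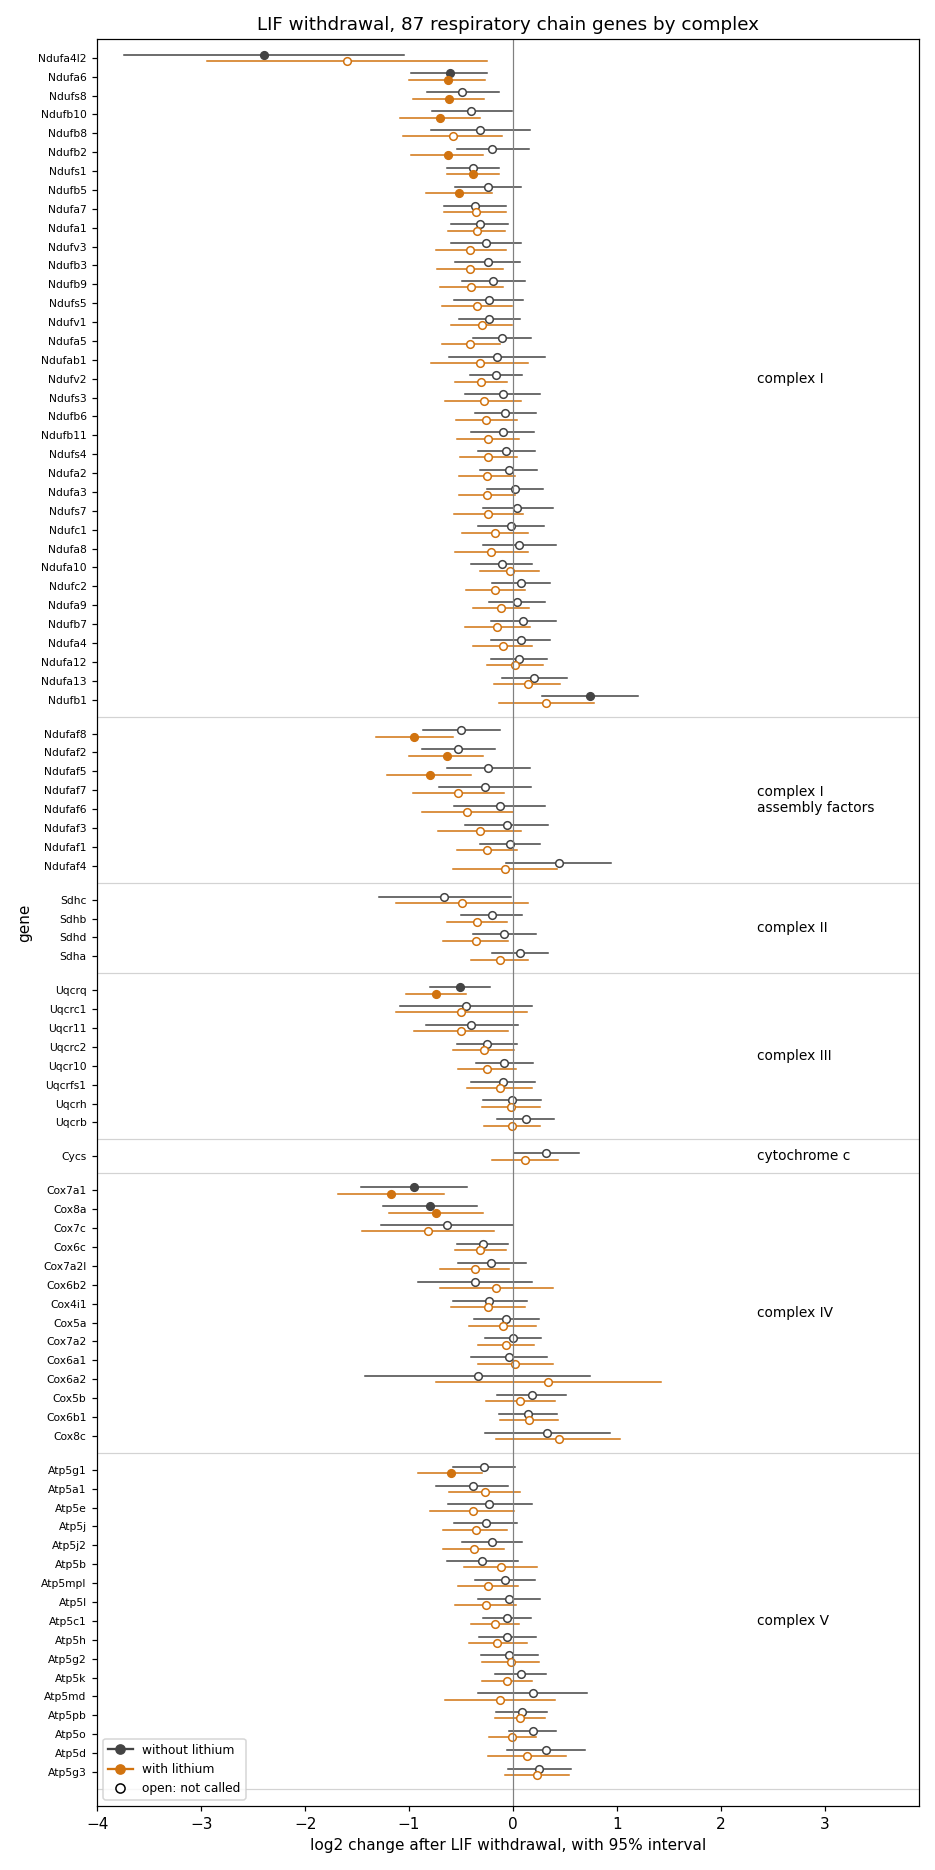
Log2 change with its 95% interval for each of the 87 members after LIF withdrawal, without lithium (grey) and with lithium (orange), by complex, with called genes filled. Most points lie left of 0, from -2.4 for Ndufa4l2 to 0.74 for Ndufb1, both without lithium.

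Averaged over lithium, with 6 arrays against 6, withdrawal lowered 25 members and raised 1, where 13.5% of all genes were lower and 17.4% higher. The lower members were 12 of 35 in complex I, 3 of 8 assembly factors, 0 of 4 in complex II, 2 of 8 in complex III, 4 of 14 in complex IV and 4 of 17 in complex V. Complexes were assigned by symbol, so the 35 include Ndufa4 and Ndufa4l2, and the 12 include Ndufa4l2. Of the 87 members 72 had a negative change, against 47.7% of all genes. The median change was -0.19, beside 0.02 over all probe sets and 0.03 over all genes. It was -0.27, with -0.06 over all probe sets, after centring, which left 8 members called, all lower. The groups of 6 did not overlap in 10 members, against 7.62% of all genes. All members lower in either single comparison were lower here. The count fell from 26 to 17 without LIF-free plus lithium replicate 2. Most changes were small, and only Cox7a1 and Ndufa4l2 changed by more than 2 fold.

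**Figure D3:**
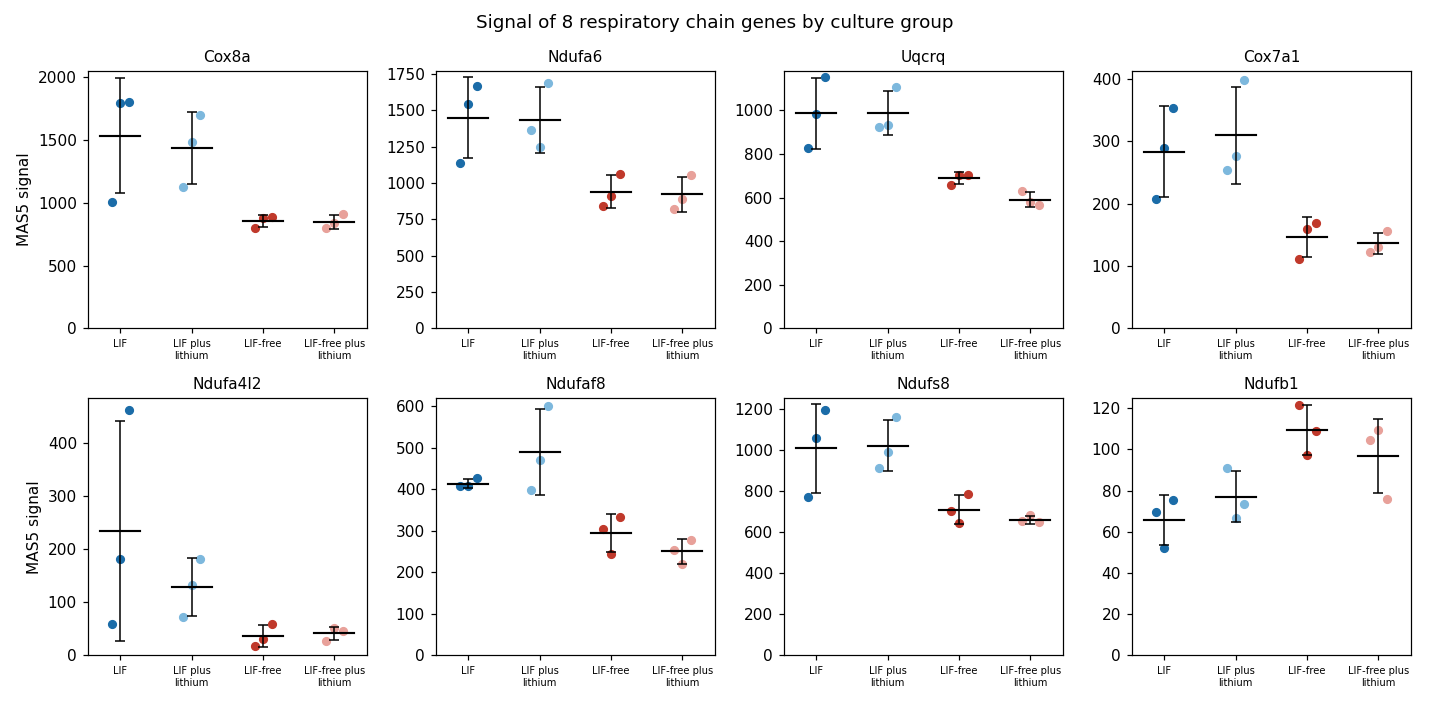
MAS5 signal of 8 members on every array (points), with the group mean and SD (bars), on axes that start at 0. For Cox8a, Ndufa6, Uqcrq, Cox7a1 and Ndufaf8 every array without LIF lies below every array with LIF, and for Ndufb1 the LIF-free arrays lie above the LIF arrays.

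Complex I oxidises NADH. Its accessory subunit Ndufa6 read 1137, 1544 and 1665 in LIF, 1366, 1245 and 1688 in LIF plus lithium, 843.8, 907.2 and 1064 in LIF-free and 821.8, 886.8 and 1057 in LIF-free plus lithium. All 6 arrays without LIF lay below all 6 with it. The log2 change was -0.61 ± 0.17 (SE, adjusted p = 0.0394) without lithium and -0.63 ± 0.17 (0.0292) with lithium. Ndufs8, a core subunit that carries iron-sulfur clusters, read 773.2, 1062 and 1195 in LIF and 702.5, 644.3 and 787.7 in LIF-free. These groups overlap through LIF replicate 1. It read 914.2, 993.4 and 1161 in LIF plus lithium and 654.8, 684.9 and 648.3 in LIF-free plus lithium, a log2 change of -0.62 ± 0.16 (adjusted p = 0.0237). Without lithium the change was -0.49 (adjusted p = 0.0731).

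Ndufs1, the largest core subunit, read 756.4, 732.6 and 692.6 in LIF, 772.6, 726.2 and 731.5 in LIF plus lithium, 631.3, 547.7 and 494.6 in LIF-free and 570.4, 567.5 and 562.2 in LIF-free plus lithium. Arrays with and without LIF did not overlap. The change was -0.39 in both comparisons, with adjusted p = 0.0518 without and 0.0429 with lithium. Quantile normalisation (0.0736), centring (0.0926), no filter and no intensity trend each ended the second call. The membrane-arm subunits Ndufb10 (-0.7 ± 0.18, adjusted p = 0.0225), Ndufb2 (-0.63 ± 0.16, 0.0227) and Ndufb5 (-0.52 ± 0.15, 0.0364) were lower with lithium. The other core subunits Ndufs3, Ndufs7, Ndufv1 and Ndufv2 had averaged changes of -0.19, -0.1, -0.27 and -0.23. On the brightest probe sets and without the replicate block, none of them was called in any comparison. Dimmer sets were lower in the average for Ndufv1 (-0.3, limma adjusted p = 0.0201, and -0.22, 0.0478). The same held for a dimmer set of Ndufv2 (-0.66, 0.0322), while another was not called (-0.28, 0.0705). With the block Ndufv1 and Ndufv2 were lower in the average (limma adjusted p = 0.0496 and 0.033).

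Ndufb1, a small membrane-arm subunit, was the one riser. It read 69.44, 52.29 and 75.51 in LIF and 121.5, 97.25 and 108.9 in LIF-free, a change of 0.74 ± 0.21 (adjusted p = 0.0455). With lithium it read 90.82, 66.76 and 73.4 against 104.8, 109.6 and 76.04 without LIF, which overlap, and the change was 0.32 (adjusted p = 0.365). The averaged change was 0.53 (adjusted p = 0.0201), and centring ended that call (0.0954).

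Ndufa4l2 is a hypoxia-inducible relative of Ndufa4, and Ndufa4, named for complex I, is now counted with complex IV. Ndufa4l2 read 59.74, 181.2 and 461.9 in LIF, 72.49, 133.4 and 181.4 in LIF plus lithium, 18.62, 30.91 and 59.63 in LIF-free and 27.13, 51.57 and 45.33 in LIF-free plus lithium. The LIF arrays span a wide range, and the highest LIF-free array nearly reaches the lowest LIF array. The change was -2.4 ± 0.62 (adjusted p = 0.0304) without lithium, -1.6 ± 0.62 (0.116) with lithium and -2 ± 0.44 (0.0053) averaged. Without lithium 4 of 12 single-array omissions ended its call, with an adjusted p of up to 0.11, reached without LIF replicate 3. Ndufa4 itself changed by 0.08 and -0.1 and was not called.

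Assembly factors build complex I but are not part of it. Ndufaf8 read 407.8, 406.9 and 426 in LIF, 397.6, 470.7 and 600.6 in LIF plus lithium, 305, 244.3 and 334.4 in LIF-free and 254.6, 219 and 279.1 in LIF-free plus lithium. Every array without LIF was lower than every array with LIF. The change was -0.5 ± 0.17 (adjusted p = 0.0837) without lithium and -0.95 ± 0.17 (0.00395) with lithium. Ndufaf2 changed by -0.53 (adjusted p = 0.0624) and -0.64 (0.0235), also with no overlap, and Ndufaf5 by -0.24 (0.473) and -0.8 (0.0146). Without the replicate block the other 5 factors were not called, and Ndufaf4 had changes of 0.44 and -0.08. With the block Ndufaf6 and Ndufaf7 were lower with lithium (limma adjusted p = 0.0363 and 0.0372) and in the average (0.0367 and 0.0184).

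Complex II, succinate dehydrogenase, also serves the citric acid cycle. On the brightest probe sets and without the replicate block, none of its 4 genes was called in the 7 comparisons. In the average 3 had an unadjusted p under 0.05. A dimmer set of Sdhd was lower in the average (-0.58, limma adjusted p = 0.0131), and those of Sdha and Sdhc were not called for withdrawal. The averaged changes were -0.03 for Sdha, the flavoprotein, -0.28 for Sdhb, the iron-sulfur subunit, and -0.58 and -0.22 for the membrane anchors Sdhc and Sdhd. Sdhc varied most, reading 417, 719 and 1040 in LIF and 359.2, 522.4 and 424.6 in LIF-free, and these groups overlap. Within each numbered pair the LIF-free array was the lower. With the block Sdhc was lower without lithium (-0.66, limma adjusted p = 0.0138), with lithium (0.0478) and in the average (0.00182), and Sdhb was lower in the average (0.0365). The pairing rule was met by the arrays without lithium and not by those with it, but the block was fitted over all 12 arrays. Blocked results in every comparison thus also pair arrays that did not meet the rule. The rule rests on a cutoff of 0.1, since the lowest residual correlations were 0.137 and 0.0972.

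Complex III passes electrons from ubiquinol to cytochrome c. Uqcrq, its ubiquinone-binding small subunit, read 827.3, 982.6 and 1152 in LIF, 923.6, 934.1 and 1105 in LIF plus lithium, 657, 702.4 and 705.2 in LIF-free and 628.2, 579.6 and 564.1 in LIF-free plus lithium. The arrays with and without LIF were fully separate. The change was -0.51 ± 0.13 (adjusted p = 0.0326) without lithium and -0.74 ± 0.13 (0.00433) with lithium. Its other tested probe sets are dim and were not called, and one of them had the opposite sign with lithium (0.49). Uqcr11 was lower in the average (-0.45, adjusted p = 0.0403). The core subunits Uqcrc1 and the Rieske protein Uqcrfs1 had averaged changes of -0.48 and -0.11 and were not called without the replicate block. With the block Uqcrc1 was lower without lithium (limma adjusted p = 0.0407), with lithium (0.0238) and in the average (0.00249).

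Cytochrome c, encoded in somatic cells by Cycs, carries electrons from complex III to complex IV. Cycs read 3743, 3356 and 2818 in LIF, 3249, 2685 and 3467 in LIF plus lithium, 4573, 3554 and 4233 in LIF-free and 3702, 3159 and 3266 in LIF-free plus lithium. The groups overlap. The change was 0.32 (adjusted p = 0.198) without lithium and 0.11 (0.68) with lithium. Cyct, the testis form, is outside the rule and stood on the germ cell list: its mean signal was 230 ± 77.1 (SD, n = 3) in LIF and 49.1 ± 15.9 in LIF-free, a change of -2.23 (adjusted p = 0.0035), and -2.57 (0.00159) with lithium. The germ cell markers fell as a list, with 4 of 5 lower without and 5 of 5 with lithium.

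Complex IV, cytochrome c oxidase, has several subunits that come as a widely expressed and a tissue-restricted isoform. Cox8a, the widely expressed form of subunit 8, read 1007, 1797 and 1803 in LIF, 1126, 1488 and 1699 in LIF plus lithium, 799.5, 879.9 and 885 in LIF-free and 796.2, 839.4 and 911.1 in LIF-free plus lithium. All arrays without LIF lay below those with LIF. The change was -0.8 ± 0.21 (adjusted p = 0.0311) and -0.74 ± 0.21 (0.0355). Cox7a1, the heart and muscle form of subunit 7a, read 207.4, 290 and 353.5 in LIF, 254.3, 277.2 and 399.1 in LIF plus lithium, 110.5, 158.7 and 169.8 in LIF-free and 122.9, 129.7 and 156 in LIF-free plus lithium. The groups were again separate, with changes of -0.95 ± 0.24 (adjusted p = 0.0257) and -1.17 ± 0.24 (0.00765). Its widely expressed counterpart Cox7a2 changed by 0 and -0.07 and was not called.

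**Figure D4:**
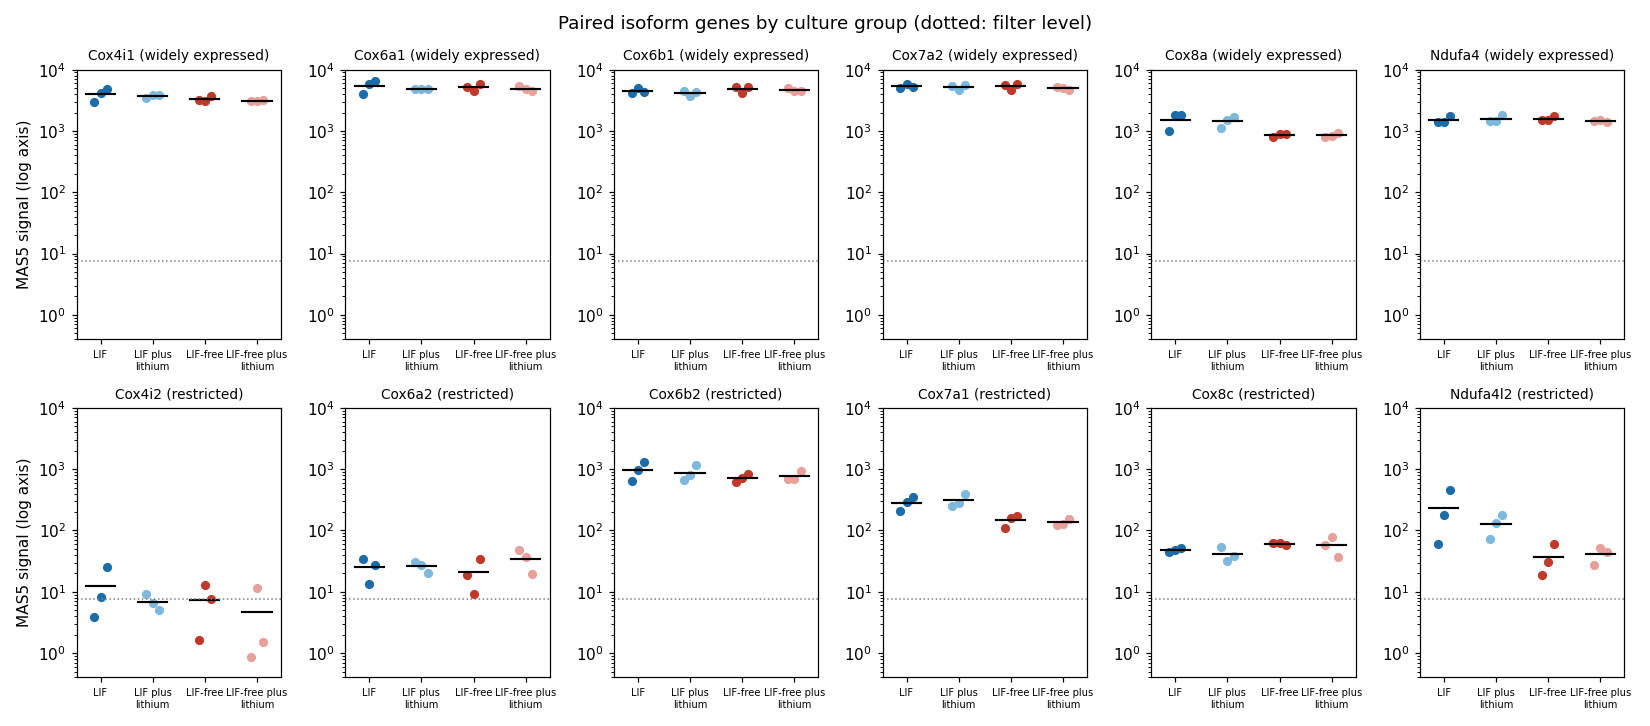
MAS5 signal on a log axis for 6 pairs of genes, the widely expressed member above and the restricted or regulated member below, on every array (points) with group means (bars) and the filter level (dotted). Cox7a1 and Ndufa4l2 are lower without LIF, while Cox7a2 and Ndufa4 have averaged log2 changes of -0.04 and -0.01.

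The other restricted forms were not called without the replicate block. Cox6a2, the muscle form of subunit 6a, read 9.369 to 47.67 over the 12 arrays, with changes of -0.34 and 0.34, and Cox6a1 changed by -0.04 and 0.02. Cox6b2, known from testis, read 616 to 1316 with changes of -0.37 and -0.16, and Cox6b1 changed by 0.14 and 0.15. With the block Cox6b2 was lower in the average (-0.26, limma adjusted p = 0.0393). Cox8c, also known from testis, changed by 0.33 and 0.44. Cox4i2 (0.8706 to 25.52), Cox7b2 (0.9263 to 9.684) and Cox8b (0.6748 to 13.56) were not tested. Of the widely expressed nuclear subunits, Cox4i1, Cox5a and Cox5b had averaged changes of -0.24, -0.08 and 0.12. Cox6c (-0.31, adjusted p = 0.0133) and Cox7c (-0.73, 0.0217) were lower in the average, Cox7c on a probe set with a signal of 59.2.

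Complex V is the ATP synthase. Atp5g1, one of 3 genes for the same ring subunit, read 1067, 1245 and 1411 in LIF plus lithium and 784.7, 752.5 and 905.5 in LIF-free plus lithium, which do not overlap, a change of -0.6 ± 0.14 (adjusted p = 0.0145). Without lithium it read 938.2, 1189 and 1071 against 858.7, 810 and 959.5, with a change of -0.28 (0.241). The other ring genes, Atp5g2 and Atp5g3, had averaged changes of -0.03 and 0.24 and were not called. Atp5a1 and Atp5b encode the alpha and beta subunits, of which beta carries the catalytic sites. They had averaged changes of -0.33 (adjusted p = 0.0458) and -0.21 (0.213), and Atp5c1, the central stalk, -0.12 (0.308). The probe sets of Atp5a1 disagree: a dimmer one was higher in the average (1.28, adjusted p = 0.00218). Atp5j and Atp5j2 were lower in the average, by -0.31 and -0.29.

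No member was called for lithium. In cultures with LIF 0 of 87 were called, in cultures without LIF 0, and averaged over LIF 0, and limma called 0% of all genes in each, with 749, 347 and 340 of 27022 probe sets at an unadjusted p under 0.05. At an unadjusted p under 0.05 there were 0, 1 and 1 members, the same gene both times, Atp5md, a small complex V subunit, with changes of -0.56 ± 0.24 (adjusted p = 1) without LIF and -0.4 (adjusted p = 1) averaged. The members' medians were 0.06 with LIF, -0.08 without and -0.02 averaged, beside -0.08, 0.03 and -0.02 over all probe sets. The first rested on single arrays: it was -0.02 (all probe sets -0.03) without LIF plus lithium replicate 3 and -0.03 (all -0.08) without LIF replicate 1. The second was -0.02 (all 0.01) without LIF-free replicate 3. The smallest p with LIF belonged to Ndufaf5 (0.36), Ndufb7 (0.24) and Ndufs7 (0.25), all with adjusted p = 0.999. The typical 95% interval of a member reached 0.31 to either side on the log2 scale with and without LIF, and 0.22 in the average.

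The interaction asks whether withdrawal acted differently with lithium. None of the 87 members was called, 0% of all genes were, and 0 members and 666 probe sets had an unadjusted p under 0.05. The change was more negative with lithium in 74 of 87, against 44.7% of all genes. The members' median was -0.15, beside 0.11 over all probe sets and 0.04 over all genes. That median was -0.07 (61 more negative) without LIF plus lithium replicate 3, -0.08 (58) without LIF replicate 1 and -0.08 (61) without LIF-free replicate 3. Ndufaf5 (-0.56), Ndufb2 (-0.44) and Ndufaf8 (-0.45) had the smallest p, all with adjusted p = 0.999. The greater number of members lower with lithium is therefore not shown to be a difference between the comparisons.

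**Figure D5:**
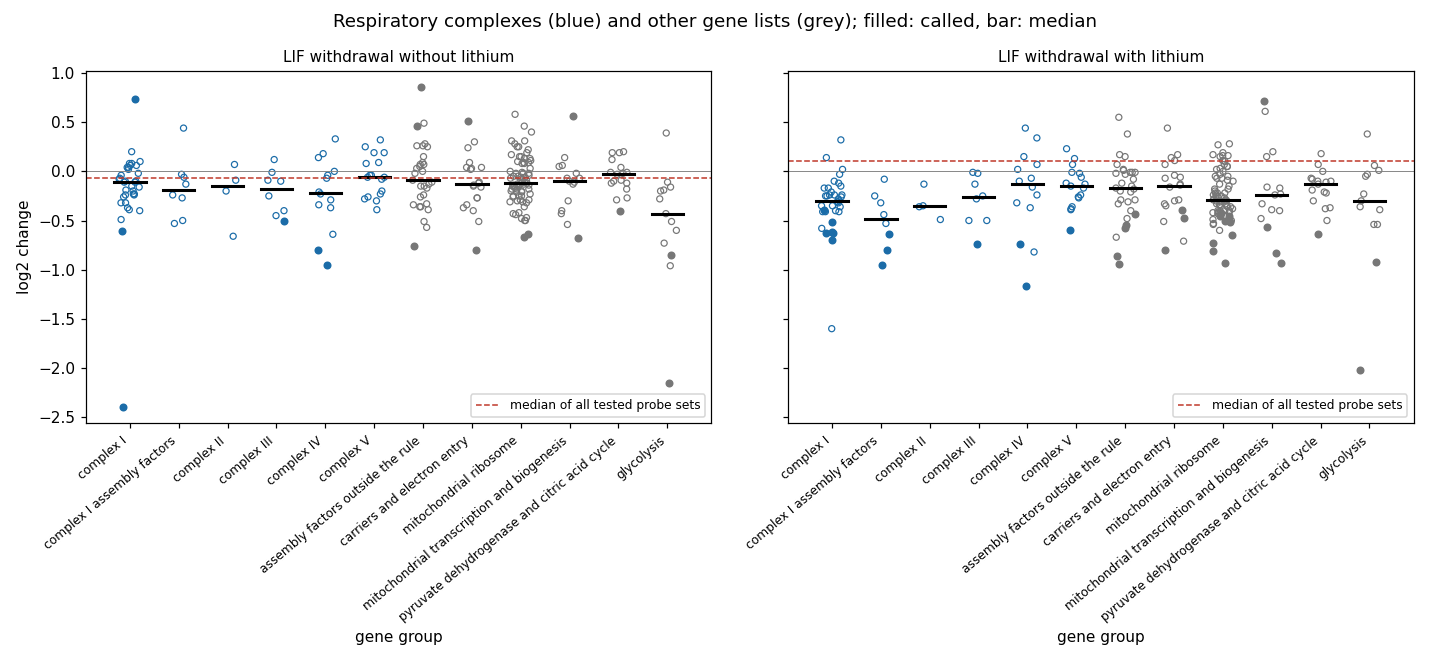
Log2 change of each tested gene after LIF withdrawal without (left) and with (right) lithium, for the respiratory complexes (blue) and 6 other lists (grey), with called genes filled, list medians as bars and the median of all tested probe sets dashed. The mitochondrial ribosome has medians of -0.12 and -0.3, and glycolysis of -0.43 and -0.3.

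Genes around the chain were read from lists. Over all genes 5.09% were lower and 7.47% higher without lithium, 6.57% and 9.48% with lithium, and 13.5% and 17.4% in the average. Several counts below lie near or under these shares, as for the 2 of 76 mitochondrial ribosomal genes lower without lithium. Of 31 tested assembly factors outside the rule, 1 was lower and 2 higher without lithium, and 5 lower and 0 higher with lithium. Ecsit, a complex I assembly factor, changed by -0.76 (adjusted p = 0.0308) and -0.86 (0.0145), and Sdhaf2, which attaches the flavin of complex II, by 0.86 (0.0127) and 0.55 (0.068). Of 76 mitochondrial ribosomal genes, 2 were lower without and 9 with lithium, with none higher, and medians were -0.12 and -0.3. Mrps31 (-0.64, -0.81) and Mrps24 (-0.67, -0.93) were lower in both.

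Among 15 genes of mitochondrial transcription and biogenesis, 1 was lower and 1 higher without lithium, and 3 lower and 1 higher with it. Gabpa, the DNA-binding subunit of GABP, had a mean signal of 740 ± 22.8 in LIF, 839 ± 76.7 in LIF plus lithium, 461 ± 2.59 in LIF-free and 442 ± 52.1 in LIF-free plus lithium (SD, n = 3). Its change was -0.68 (adjusted p = 0.00475) and -0.93 (0.000917). Nrf1 changed by -0.43 (0.145) and -0.57 (0.0496), and Polg, the mitochondrial DNA polymerase, by 0.56 (0.0275) and 0.72 (0.00697). Among 20 carrier and electron entry genes 1 was lower and 1 higher without lithium and 3 lower with it. Dhodh, which feeds electrons from pyrimidine synthesis to ubiquinone, was lower in both (-0.8 in each).

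Of 17 pyruvate dehydrogenase and citric acid cycle genes, only Pdhb was called in each comparison (-0.4, adjusted p = 0.0408, and -0.64, 0.00363). Of 13 glycolysis genes 2 were lower in each comparison: Pfkp, a phosphofructokinase, by -2.15 (adjusted p = 0.000776) and -2.02 (0.000486), and Hk2, a hexokinase, by -0.85 (0.00346) and -0.92 (0.00188). The one tested mitochondrially encoded gene, ND5, changed by -0.11 and 0.53 and was not called. In the average, 8 of 31 assembly factors were lower and 2 higher. For 76 ribosomal genes the counts were 17 and 3, and for 15 transcription and biogenesis genes 4 and 1. For 20 carrier and electron entry genes they were 5 and 1, for 17 citric acid cycle genes 2 and 0, and for 13 glycolysis genes 6 and 1.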

How the data were processed

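Mouse D3 stem cell RNA was hybridised to Affymetrix arrays, 3 in each of 4 groups. The deposited values are intensities made by the authors with MAS5, per the submitters' processing notes, with version and settings not given in the sources used here. Control probe sets (64) were left out, values under 1 set to 1, and log2 taken. Probe sets above the 40th percentile of mean log2 (27022 of 45037) were tested with limma 3.58.1 in R 4.3.3 (lmFit and eBayes with an intensity trend, 1 mean per group, 8 residual degrees of freedom), two-sided, with Benjamini-Hochberg adjustment over probe sets. Background shares were counted over 12737 genes, each by its brightest probe set, and were not matched to the members in brightness. With 3 arrays against 3 a permutation test cannot go below p = 0.1, so calls rest on the model's pooled spread, and p-values measure the spread between these arrays, which may be technical. The number of arrays limits the precision.

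Members and lists were chosen with earlier results of these data known. Named genes were called members, those of smallest p, core subunits, paired isoforms, and the brightest and dimmest of each complex, with up to 4 called genes per list; Cyct, ND5, Sdhaf2 and other probe sets were added after their values were seen. Gene symbols are those of the platform annotation, and all 91 members matched a RefSeq gene. Probe sets with several symbols (10 with a symbol of the rule) were left out. The replicate numbers were taken as pairing where residuals of equal number correlated over 0.1 for all 3 numbers. These were 0.438, 0.137 and 0.339 between LIF and LIF-free. They were 0.451, 0.0972 and 0.379 between the lithium groups, which did not meet the rule. The main fit has no block, and the blocked fit covers all 12 arrays, those with lithium included. Fits were tested on simulated data. The 6 promoter motifs, and the change of the NRF1 motif from a 10-letter to a 9-letter form made so that its letters could be printed, came after the calls and the counts of the first form had been seen. Alternatives were quantile normalisation, median centring, a pseudocount of 16, no filter or the 60th percentile, the replicate block, no trend, only the compared arrays, other probe set choices and leaving out each array. Figures used Python 3.11.15 and matplotlib 3.10.9.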

Additional observations from a re-analysis of the deposited data

How the results depend on the processing

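Counts of called members depended on the settings. In withdrawal without lithium (6 called) the count was 10 after quantile normalisation, 1 after median centring, 14 with the replicate block, and 0 with no intensity trend and with only the compared arrays. With lithium (13 called) it was 4 after centring, 30 with the replicate block and 6 with no trend. Averaged (26 called) it was 8 after centring and 40 with the replicate block. Calls over all 27022 probe sets moved too. Without lithium they numbered 2515, and 2753, 1560, 5260, 1674 and 1168 in those 5 settings. With lithium they numbered 3368, and 1490, 5938 and 2622 after centring, with the block and with no trend. Averaged they numbered 6678, and 3690 and 9076 after centring and with the block. No setting called a member for lithium or the interaction. Median centring moved the members' median log2 change to 0.08 and -0.6 for withdrawal without and with lithium, 0.43 and -0.25 for lithium with and without LIF, and -0.69 for the interaction. The members' median minus that of all probe sets was -0.04, -0.37 and -0.21 for the 3 withdrawal comparisons, and -0.1, -0.2 and -0.15 after quantile normalisation. Without LIF plus lithium replicate 3 it was -0.22 with lithium and -0.13 averaged, and without LIF replicate 1 it was -0.16 without lithium. Leaving out 1 array gave 0 to 14 calls without lithium (with medians of -0.23 to -0.09), 3 to 18 with lithium and 17 to 37 averaged. Over all members, the 65 other fits of the withdrawal comparisons lost 222 and gained 137 calls in all. Among the named genes 3 values reversed: Uqcrq was 0.49 with lithium and 0.08 averaged on a dim probe set without a cross-hybridising name, and Atp5a1 was 0.26 averaged over its probe sets. Changes of sign in genes called in neither setting were not counted as reversed, and a median counted as moved past 0.12, the SD between arrays. Signs of members did change under centring. Members with a negative change went from 64 to 39 of 87 in withdrawal without lithium and from 75 to 86 with lithium. For lithium with LIF they went from 32 to 1. Of 45 calls, 8 held in every setting: Cox7a1 and Ndufaf8 with lithium, and Cox7a1, Cox8a, Ndufa4l2, Ndufa6, Ndufaf2 and Ndufaf8 averaged. The cause of these differences was not tested.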

Other observations

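Dimmer probe sets of a member often gave a more negative change than the brightest one. Of 48 members with at least 2 tested probe sets, the median of the other sets was lower than the chosen set in 35 for averaged LIF withdrawal, with medians over these genes of -0.29 and -0.16. For 12 members a different probe set was called and the chosen one was not, lower in 11 and higher in 1, Ndufab1 (0.84, limma adjusted p = 0.0103). Uqcrb changed by 0.05 on its brightest set and -0.4 (limma adjusted p = 0.00774) on another, and Ndufc1 by -0.1 and -0.48 (0.0207).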
